A study of Macaca fuscata with 18 samples.

Results

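The subunits of the ionotropic and metabotropic glutamate receptors and of the GABA-A receptors were followed in the subventricular zone of the anterior horn (SVZa) of Japanese macaques after global brain ischemia. They were taken from the table of transcripts by symbol: names that start with GRIA, GRIK, GRIN, GRID or GRM and a number, or with GABR and the letter of a GABA-A subunit. The rule found 47 of 19747 symbols, with 78 of 29686 transcripts, and each symbol was represented by its transcript of highest mean level. Of the 47, 45 encode receptor subunits. The remaining symbols are GRID2IP, which encodes delphilin, a scaffold protein of synapses, and GRIK1-AS1, an antisense RNA of the GRIK1 locus.

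AMPA, kainate and NMDA receptors are glutamate-gated cation channels assembled from several subunits, and they carry fast excitation and, for NMDA receptors, much of the calcium entry linked to synaptic plasticity and ischemic injury. The GRM genes encode G-protein-coupled glutamate receptors, of which group I excites and groups II and III mostly restrain transmitter release. GABA-A receptors are chloride channels built mainly of alpha, beta and gamma or delta subunits, and in the striatum, whose neurons lie next to the SVZa, they carry most of the inhibition.

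Ischemic monkeys (MK503, MK507 and MK506) had transient whole-brain ischemia by clipping of the brachiocephalic trunk and the left subclavian artery for 18 minutes, and sham-operated monkeys (MK504, MK501 and MK508) had the same operation without clipping. All were adult Macaca fuscata of 4 to 6 years, killed 7 days after surgery and perfused with saline. From each of the 6 monkeys, 3 adjacent SVZa fragments (A1, A2 and A3) were taken from the striatal wall of the right lateral ventricle and sequenced separately, giving 18 libraries. The 3 libraries of a monkey were summed, so that the monkey was the replicate. The monkeys were compared in pairs inferred from the study's numbering: MK503 with MK504, MK507 with MK501, and MK506 with MK508. The study gives the same number to the monkeys of a pair and used a paired test. Its text does not name the paired monkeys or say what they share.

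The libraries held 18076257 to 74551396 counts in ischemia (median 55634148) and 19091839 to 57461603 in sham (median 38019896). Levels are given as CPM, the counts of a transcript scaled to a common library size, after TMM normalization. They are not corrected for transcript length, so levels were not compared between genes. The first pair, MK503 and MK504, stood apart from the other 4 monkeys, above all of them in 34% of all genes tested and below all of them in 36.4%. MALAT1, a nuclear RNA, was at 20300 and 20000 CPM in MK503 and MK504 and at 822 to 2210 CPM in the others. Its libraries A2 of MK503, A2 of MK504 and A3 of MK504 also held most of the reads of POLE2, which reached 31900 CPM in MK503 and 66500 CPM in MK504 and at most 2.8 CPM elsewhere. Counts of members, and several genes in which this pair carried most of a difference, are given with and without it.

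In ischemic SVZa no receptor gene was higher or lower at an adjusted p under 0.05 in edgeR, and neither was any gene of the whole table (0% called). The receptor gene with the smallest p was GRIN3A, which was higher in ischemia in all 3 pairs. Lower at an unadjusted p under 0.05 were 8 members, among them the GABA-A subunits GABRB2 and GABRD, the glutamate channel subunits GRIA3, GRIK2 and GRIN3B, and the metabotropic receptor GRM7. These 8 are 18.6% of the 43 members with enough counts to test, against 8.04% of all genes tested. GRIN3A was the 1 member higher at that threshold, 2.33% of the members, against 8.38% of all genes. The remaining 4 members, GABRA6, GABRP, GABRR2 and GABRR3, were at 0.15 CPM or less in every monkey and were not tested. Over the 43, 25 had a log2 fold change (ischemia over sham) below 0 (58.1%, against 52.6% of all genes), and the median was -0.07, against -0.02 over all genes tested. DESeq2 on the same sums called GRIN3A higher at an adjusted p under 0.05 (background 3.85%) and no member lower (background 2.48%).

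The unadjusted counts depended on single pairs. With a pair term in the fit, leaving out a monkey also removes its partner's information, so the result rests on the other pairs. Without MK503 or MK504, 4 members were lower and 9 higher, and the 9 were the same genes for both: GRIN3A, GABRA2, GABRA3, GABRG3, GABRQ, GRID1, GRIK5, GRIN1 and GRIN2B. Over all genes, 10.1% were lower and 11.8% higher without MK503, and 9.65% and 12.1% without MK504. The median of the members then turned to 0.08. Without MK507 or MK501, 5 members were lower (3.61% and 3.23% of all genes), and without MK506 or MK508, 3 were (4.96% and 4.91%). Without the 3 libraries rich in POLE2 reads, 2 were lower, GABRB2 and GABRA4, and 2 higher, GRM3 and GRID2IP (7.36% and 9.17% of all genes). A fit with no pair term, which leaves the gap between the first pair and the other monkeys in the error, gave 0 in each direction (0.628% of all genes lower and 0.633% higher).

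**Figure D1:**
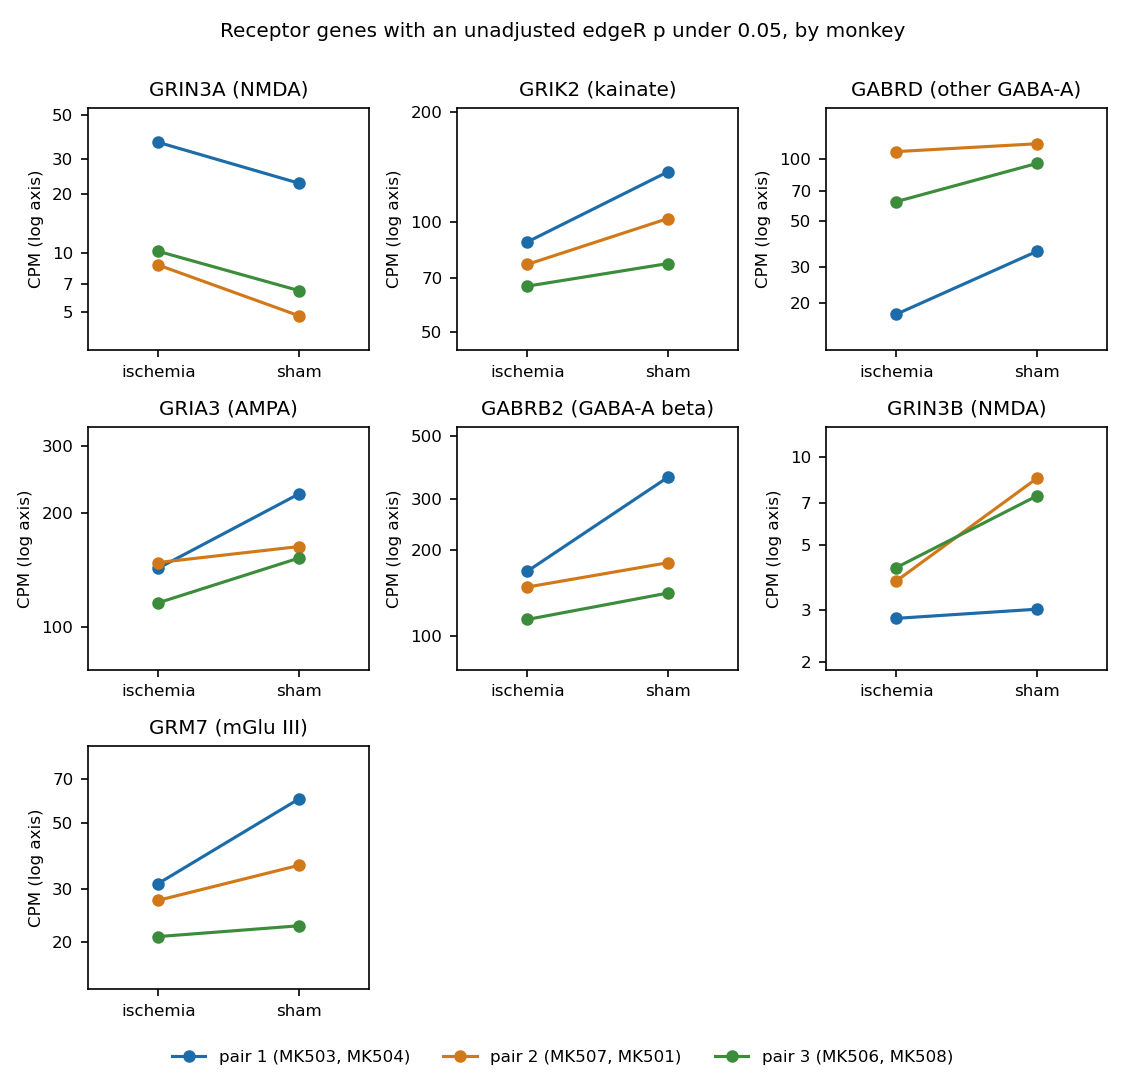
CPM on a log axis in each monkey for 7 receptor genes with an unadjusted edgeR p under 0.05, ischemia left and sham right; each line joins the monkeys of 1 pair. GRIN3A was higher in the ischemic monkey of all 3 pairs, by 0.66 to 0.85 on the log2 scale, and the other 6 genes were lower in all 3 pairs.

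GRIN3A encodes GluN3A, a glycine-binding NMDA receptor subunit that lowers calcium entry through the channel. It was at 36.4, 8.69 and 10.2 CPM in the ischemic monkeys MK503, MK507 and MK506, against 22.6, 4.81 and 6.45 CPM in their sham partners MK504, MK501 and MK508. The groups overlapped because both monkeys of the first pair were high, but within pairs the ischemic animal was higher by 0.69, 0.85 and 0.66 on the log2 scale. In edgeR the log2 fold change was 0.73 (SE 0.13, unadjusted p = 0.00245, adjusted p = 0.205). In DESeq2 it was 0.73 as well, with an adjusted p of 0.00293. The difference was carried by the fragments unevenly. In A1 it was 0.73, 0.88 and 1.29 in the 3 pairs, in A2 0.49, -0.09 and 0.62, and in A3 0.66, 1.64 and -0.61. Without the A1 fragments the log2 fold change was 0.52 (unadjusted p = 0.069 in edgeR), and without the POLE2-rich libraries it was 0.51 (unadjusted p = 0.0506 in edgeR). With no pair term it was 0.71 (unadjusted p = 0.418 in edgeR), and without MK503 or MK504 it was 0.76 (unadjusted p = 0.0115 and 0.00759 in edgeR). Markers of several cell types were higher in ischemia as well. At an unadjusted p under 0.05 in edgeR, all 6 oligodendrocyte markers and 2 of 7 astrocyte markers were higher, and 0 were lower. Of the 5 markers of oligodendrocyte precursors, 4 were higher at an unadjusted p under 0.05 in edgeR, against 8.38% of all genes tested. Their summed level ranged from 272 to 390 CPM in ischemia and from 166 to 267 CPM in sham, and none was at 0. Of the 5 markers of cortical glutamatergic neurons, 3 were higher, their summed level ranged from 20.9 to 89.1 CPM in ischemia and from 11.3 to 47.8 CPM in sham, and none was at 0. Among them SLC17A7, a vesicular glutamate transporter, was at 45.2, 16.6 and 10.5 CPM in ischemia against 17.7, 3.87 and 5.98 CPM in sham. The part of these cell types in the GRIN3A difference was not tested.

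GRIN3B, the other GluN3 subunit, differed in the opposite direction. It was at 2.81, 3.77 and 4.19 CPM in the ischemic monkeys and at 3.02, 8.46 and 7.37 CPM in their sham partners. The first pair barely differed (-0.10), and the other pairs differed by -1.16 and -0.81. The log2 fold change was -0.71 (SE 0.27, adjusted p = 0.296 in edgeR). Of the 9 comparisons of same-numbered fragments within pairs, 8 were below 0. Fragments of a pair are not independent replicates, and the same count was not made over all genes.

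The remaining NMDA subunits had no direction in common between the pairs. GRIN1, the obligatory subunit, was at 116, 566 and 434 CPM in ischemia and at 235, 419 and 346 CPM in sham, so that it was lower in the first pair (-1.02) and higher in the others (0.43 and 0.33). GRIN2D followed GRIN1 in sign, with -0.96, 0.43 and 0.25, and so did GRIN2B, with -0.92, 0.73 and 0.36. Over the 3 pairs the log2 fold changes of GRIN1, GRIN2D and GRIN2B were between -0.08 and 0.02 with SE of 0.33 to 0.35. GRIN2C was at 0.01 with an SE of 0.16. GRIN2A, the subunit of most adult NMDA receptors, was lower in the first and the third pair (-0.85 in the first) and higher in the second (0.63). The ratio of GRIN3A to GRIN1 was higher in the ischemic monkey of all 3 pairs, by 1.70, 0.42 and 0.34 on the log2 scale. Ratios were described with no test.

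Among the AMPA receptor subunits, GRIA3 was at 143, 148 and 116 CPM in ischemia and at 224, 163 and 152 CPM in sham. It was the only member whose ischemic monkeys all lay below all sham monkeys, which held for 2.76% of all genes tested. No member lay wholly above (2.44% of all genes). The log2 fold change of GRIA3 was -0.39 (SE 0.14, adjusted p = 0.285 in edgeR). GRIA2, which makes the channel impermeable to calcium, was at 635, 409 and 412 CPM against 890, 451 and 396 CPM in sham, a log2 fold change of -0.19 (SE 0.17), and GRIA1 was at -0.04 (SE 0.15). GRIA4 was at 42.3, 18.8 and 17.5 CPM in ischemia against 33.5, 13.3 and 16.5 CPM in sham. It was slightly higher in each pair, with a log2 fold change of 0.31 (SE 0.13, adjusted p = 0.332 in edgeR).

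Of the kainate receptor subunits, GRIK2, which forms channels on its own, was at 88.0, 76.4 and 66.6 CPM in ischemia against 137, 102 and 76.8 CPM in sham. It was lower in each pair, by -0.64, -0.42 and -0.21, and its log2 fold change of -0.42 had an SE of 0.12 (adjusted p = 0.244 in edgeR), the smallest p among the lower members. GRIK4, a high-affinity subunit that needs a partner such as GRIK2, was at 10.8, 8.36 and 9.82 CPM in ischemia against 8.86, 3.14 and 8.37 CPM in sham. Its log2 fold change of 0.64 (SE 0.29, adjusted p = 0.348 in edgeR) rested mostly on the second pair (1.41, against 0.29 and 0.23). It was higher in the ischemic monkey in 8 of the 9 same-numbered fragments. Fragments of a pair are not independent, and this count was not made over all genes. GRIK1, GRIK3 and GRIK5 had log2 fold changes of -0.09, 0.03 and 0.14 with SE of 0.16 to 0.18. The delta receptor GRID1, which organises synapses rather than carries current, was at 0.02, with the first pair below 0 (-0.56) and the other pairs above 0 (0.29 and 0.33).

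All 4 metabotropic receptors of group III, the presynaptic autoreceptors of glutamate terminals and, for GRM6, a receptor known from the retina, had negative log2 fold changes, between -0.48 and -0.32. Over all genes tested, 52.6% were below 0. Of the 4, only 2, GRM7 and GRM4, were lower in all 3 pairs, and GRM6 was higher in the first (0.11). GRM7 was at 31.3, 27.5 and 20.8 CPM in ischemia against 60.0, 36.0 and 22.6 CPM in sham (log2 fold change -0.48, SE 0.18, adjusted p = 0.300 in edgeR). The first pair differed most (-0.94, against -0.39 and -0.12). Without MK503, MK504, MK507 or MK501, GRM7 had no unadjusted p under 0.05 in edgeR. GRM4 was lower in each pair too, at 9.63, 34.2 and 26.1 CPM against 21.2, 39.0 and 26.7 CPM, but nearly all of the difference was in the first pair (-1.14, against -0.19 and -0.03), and without MK503 its log2 fold change was -0.11. Only GRM7 of the 4 had an unadjusted p under 0.05. Of group I, GRM5, a postsynaptic receptor abundant in striatal neurons, was at 259, 179 and 142 CPM in ischemia and at 470, 172 and 130 CPM in sham. GRM3, which astrocytes and neurons express, was at 152, 163 and 170 CPM against 168, 153 and 132 CPM in sham, a log2 fold change of 0.11 (SE 0.14).

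**Figure D2:**
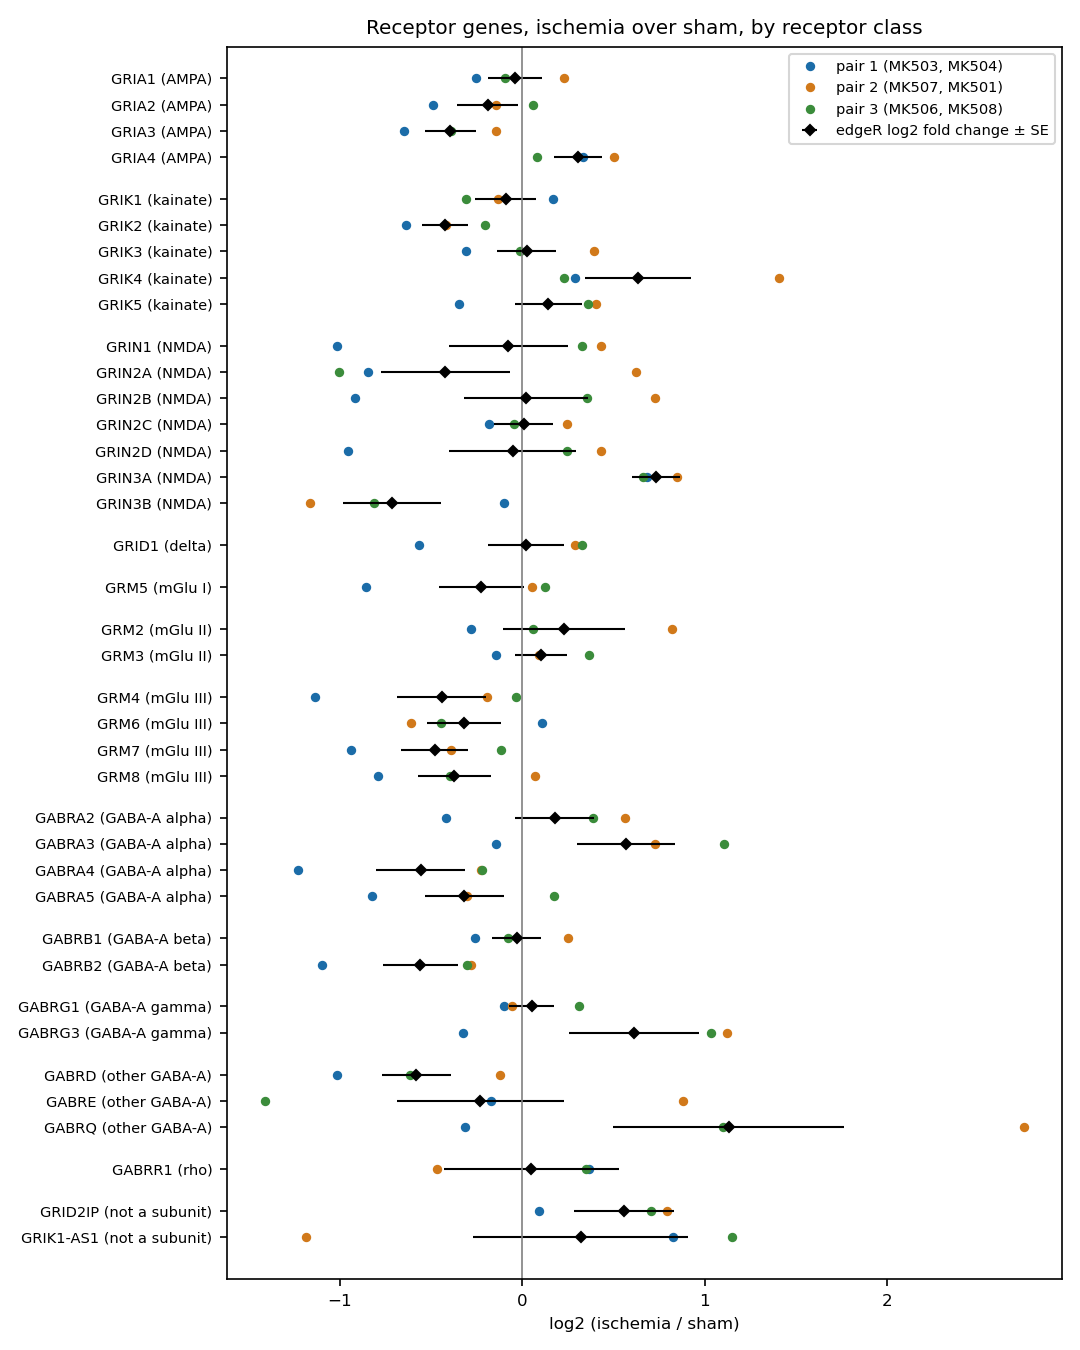
Log2 ratio of ischemia to sham for 38 of the members tested, by receptor class; coloured points are the 3 pairs, black diamonds the edgeR log2 fold change with its SE. GRIN3A had the closest agreement among pairs of the members far from 0, and in many other genes the first pair (blue) lay left of the other pairs.

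Of the GABA-A subunits, GABRB2, a common beta subunit of synaptic receptors, was at 168, 148 and 114 CPM in ischemia against 358, 180 and 141 CPM in sham. It was lower in every pair, and the first pair differed most (-1.10, against -0.28 and -0.30). Without MK503 its log2 fold change was -0.29. Its log2 fold change was -0.56 (SE 0.21, adjusted p = 0.291 in edgeR). GABRD, which replaces gamma in extrasynaptic receptors, was at 17.6, 109 and 62.2 CPM in ischemia against 35.6, 119 and 95.4 CPM in sham. Its log2 fold change was -0.58 (SE 0.19, adjusted p = 0.263 in edgeR), and the pairs differed by -1.01, -0.12 and -0.62.

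GABRA4 was also lower in each pair, with an unadjusted p above 0.05 in edgeR. This alpha subunit, a partner of GABRD in striatal neurons, was at 239, 141 and 119 CPM in ischemia and at 560, 165 and 138 CPM in sham, with a log2 fold change of -0.56 (SE 0.25, unadjusted p = 0.0725 in edgeR and 0.0239 in DESeq2, adjusted p = 0.338 and 0.184). Most of the difference was between MK503 and MK504: without MK503 the log2 fold change was -0.22. Over all members, 11 were lower in each of the 3 pairs (25.6%, against 22.8% of all genes) and 4 were higher in each (GRIN3A, GRIA4, GRIK4 and GRID2IP; 9.3%, against 20.4%), so that the share lower in each pair was near that of all genes.

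Other GABA-A subunits ran the opposite way outside the first pair. GABRA3 was at 16.6, 16.7 and 14.1 CPM in ischemia, against 18.4, 10.1 and 6.56 CPM in sham. GABRG3 was at 9.87, 2.97 and 3.99 CPM in ischemia against 12.4, 1.35 and 1.93 CPM in sham, and GABRQ, the theta subunit, at 5.62, 3.01 and 2.43 CPM against 6.98, 0.425 and 1.12 CPM. In each of these genes the first pair was below 0 (-0.15, -0.32 and -0.31) and the other pairs were between 0.73 and 2.75 on the log2 scale. Over the 3 pairs the log2 fold changes of GABRA3, GABRG3 and GABRQ were 0.57, 0.61 and 1.13 with SE of 0.27, 0.36 and 0.63, and none reached an unadjusted p of 0.05 in edgeR. In DESeq2, GABRA3 and GABRQ did (unadjusted p of 0.0487 and 0.0299), but not at an adjusted p (0.271 and 0.21). GABRA2, an alpha subunit that in rodents is prominent in immature synapses, was at 69.8, 30.3 and 26.4 CPM in ischemia against 93.3, 20.6 and 20.2 CPM in sham, which is -0.42, 0.56 and 0.39 in the pairs. GABRR1, a rho subunit known from the retina, was at 0.135, 0.169 and 0.184 CPM in ischemia against 0.099, 0.243 and 0.139 CPM in sham, too low for a fold change to be read.

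Markers of cell types differed between the groups as well. All 10 markers of striatal projection neurons were detected. Of these, 6 were lower in ischemia at an unadjusted p under 0.05 in edgeR and 0 higher, and the median log2 fold change was -0.87. Over all genes tested, 8.04% were lower and 8.38% higher at that threshold, the background for every list here. The summed level of the 10 markers ranged from 1570 to 5470 CPM in ischemia and from 4810 to 8010 CPM in sham. Of 10 pan-neuronal markers, 2 were lower and 1 higher (sums of 2530 to 3440 CPM against 3250 to 4070 CPM in sham). All 6 oligodendrocyte markers were higher (sums of 12800 to 22000 CPM against 2590 to 18100 CPM), and 4 of 6 choroid plexus markers lower (44.9 to 101 CPM against 478 to 21700 CPM). Of 8 genes listed as interneuron markers, 3 were lower (GAD2, PVALB and NPY, at -0.61, -2.89 and -0.63) and 1 higher (CALB2, at 0.63). Their sums were 364 to 619 CPM against 556 to 669 CPM in sham. GAD1 and GAD2 mark GABA neurons in general, so these sums are not specific to interneurons. Their means were 195 and 156 CPM in ischemia and 215 and 243 CPM in sham. Of 7 astrocyte markers, 2 were higher (8640 to 14400 CPM against 5940 to 11400 CPM). Of 6 microglia markers, 0 were higher or lower (202 to 248 CPM against 219 to 284 CPM). The same held for 5 endothelium markers (67.4 to 113 CPM against 63.4 to 135 CPM). The 5 markers of the ependyma, the layer of the SVZa that lines the ventricle, were detected in all monkeys at similar sums (465 to 561 CPM against 446 to 537 CPM). Of these 5, 0 were higher or lower. In bulk tissue, fewer cells of a type and less RNA per cell cannot be told apart, and the part of the cell types in the receptor differences was not tested.

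Among 45 auxiliary and scaffold genes of the same synapses, an unadjusted p under 0.05 was reached by 4 that were higher (8.89%, near the 8.38% of all genes) and 1 that was lower (2.22%, against 8.04%), and 0 passed an adjusted p of 0.05 in edgeR (smallest 0.221) or DESeq2. The higher genes were GABBR2, a subunit of the GABA-B receptor, at 67.5, 39.8 and 29.9 CPM in ischemia against 51.4, 22.9 and 23.2 CPM in sham (log2 fold change 0.52, SE 0.13), the scaffold SHANK1 (0.86, SE 0.30), the AMPA receptor partner CACNG7 (0.54, SE 0.19) and PICK1, which binds GRIA2 (0.31, SE 0.12). CACNG2, stargazin, which carries AMPA receptors to the synapse, was at -0.62 (SE 0.22). GPHN, gephyrin, the anchor of synaptic GABA-A receptors, was at -0.29 (unadjusted p = 0.0606 in edgeR). Of the 45, only GPHN had all ischemic monkeys below all sham monkeys, which held for 2.76% of all genes tested. Only SHANK1 had all ischemic monkeys above all sham monkeys (2.44% of all genes). The median of the 45 was -0.12. Without MK503 or MK504, 13 or 12 of these genes had an unadjusted p under 0.05 in edgeR, and without MK507 or MK501, 1 had. The shares over all genes moved too. Without MK503, 11.8% were higher and 10.1% lower, and without MK504, 12.1% and 9.65%. Without MK507 the shares were 3.95% and 3.61%, and without MK501 4.27% and 3.23%.

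The largest differences in these receptor genes lay between the first pair and the other monkeys, not between ischemia and sham. GRIN2B, an NMDA subunit prominent in immature and in striatal synapses, was at 163 CPM in MK503 and 309 CPM in MK504. In the other ischemic monkeys, MK507 and MK506, it was at 3.81 and 4.50 CPM, and in the sham monkeys MK501 and MK508 at 2.29 and 3.51 CPM. The first pair was thus 6.02 higher on the log2 scale, in all 6 of its libraries (127 to 387 CPM, against 0.908 to 6.70 CPM in the other 12). The ratio of GRIN2B to GRIN2A was 0.66 in MK503 and 0.73 in MK504 on the log2 scale, and between -4.12 and -2.76 in the other 4 monkeys. GABRG3 was 2.21 higher in the first pair, GABRQ 2.17, GRIN3A 1.98 and GABRA2 1.75. The antisense RNA GRIK1-AS1 was 2.25 higher, at 2.30 CPM in MK503 and 1.29 CPM in MK504 and at 0.206 to 0.552 CPM in the others.

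Some members were lower in the first pair. GABRD was lower by 1.90 on the log2 scale, GRIN1 by 1.40, GRM4 by 1.12 and GABRA5, an extrasynaptic alpha subunit, by 1.08. In all, 20 of the 43 members tested were higher in both monkeys of the first pair than in any other monkey (46.5%, against 34% of all genes), and 10 were lower (23.3%, against 36.4%). GRIN1, the obligatory partner of GRIN2B, was among the lower ones. What the monkeys of the first pair share was not given in the sources used here. The pair held 1 ischemic and 1 sham monkey, so this gap is balanced between the groups. The SD of log2 CPM between the means of the 3 pairs had a median of 0.54 over the members and 0.55 over all genes.

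**Figure D3:**
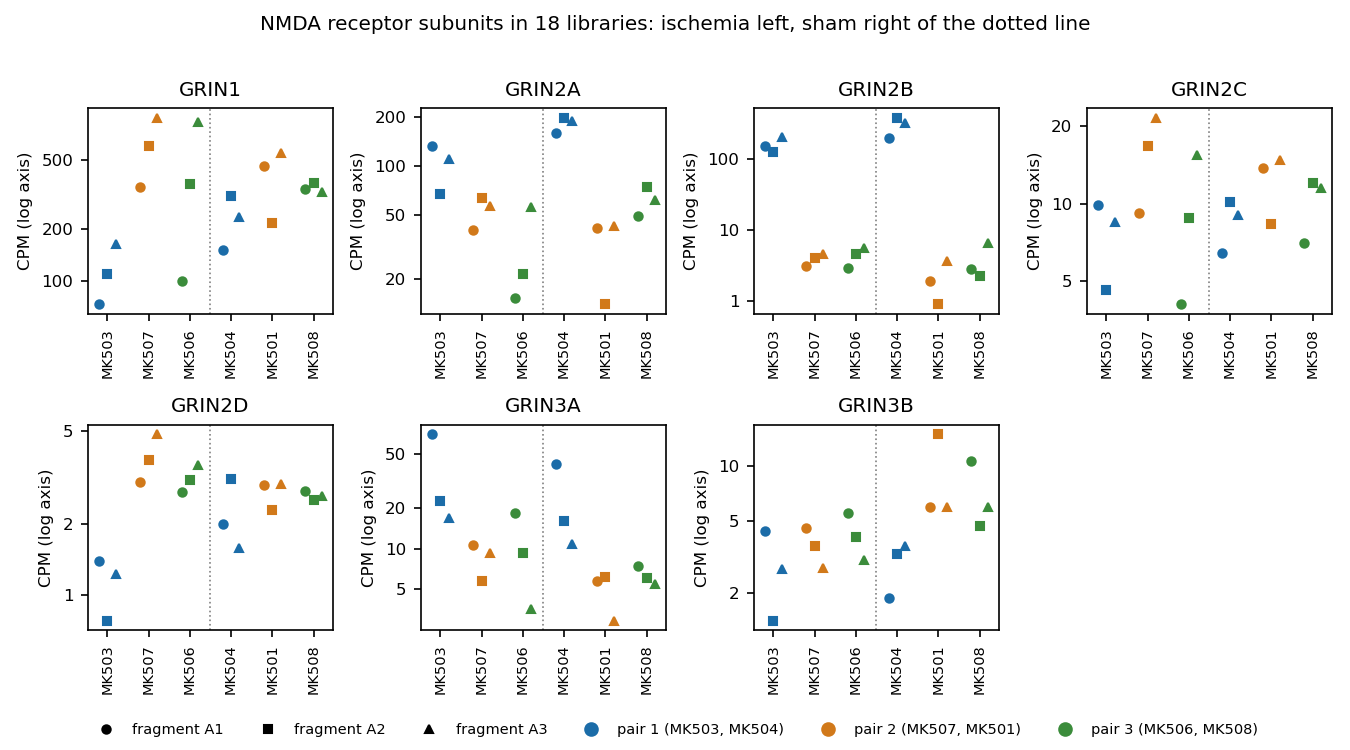
CPM on log axes in all 18 libraries for the 7 NMDA receptor subunits, ischemic monkeys left and sham monkeys right of the dotted line; colours mark pairs and symbols the fragments. GRIN2B was at 127 CPM or more in all 6 libraries of MK503 and MK504 and at 6.70 CPM or less in the other 12, while GRIN1 was lower in those monkeys.

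The transcripts of a gene mostly could not be told apart. Of the 31 further transcripts of members, 24 had at least 90% of the level of the transcript used here in every monkey. The study gives default parameters for bedtools, which by default counts a read for every transcript it overlaps. The part of this in the near-equal levels was not tested. Of 74 transcripts tested, 1 was higher (that of GRIN3A) and 20 lower at an unadjusted p under 0.05 (background over all transcripts 8.98% and 7.91%). The 20 came from the same 8 genes as above. The clearest exception was a second GRIN2A transcript (NM_001134408), which had 33.9%, 12.5% and 11.7% of the level of the main one (NM_000833) in MK503, MK507 and MK506, against 34.4%, 7.53% and 8.17% in MK504, MK501 and MK508. Its share was thus about the same in both monkeys of the first pair and higher than in the others. In GRIA4, NM_001077244 was at 76.6%, 61.2% and 48.4% of the main transcript in ischemia and at 78.2%, 57.8% and 54.9% in sham. In GRM2 the order was the other way, with 55.6%, 72.9% and 67.6% in ischemia against 58.4%, 86.5% and 73.2% in sham. Counting was not stated to use strand, so reads of GRIK1 and of its antisense RNA cannot be told apart where they overlap.

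The fragments of a monkey differed as well. The labels do not say that A1, A2 or A3 is the same position in every monkey. Over the 18 libraries, with the monkey as a block, no member differed between fragment numbers at an adjusted p under 0.05 in edgeR (smallest 0.417), and neither did any gene (0%). An unadjusted p under 0.05 was found for 6 of 42 members (background 11.4%), among them GRIN3A, GRIN2B, GRM4, GABRD and GRIN1. The likelihood ratio test of DESeq2 called 1 member, GRIN3A, at an adjusted p of 0.021 (background 1.25%). GRIN3A was higher in A1 than in A3 in all 6 monkeys, by 0.21 to 2.34 on the log2 scale, and its A1 level reached 70.0 CPM in MK503 and 42.3 CPM in MK504. GRIN2B, GRM4, GABRD and GRIN1 ran the other way. GRM4 was at 3.78, 18.3 and 4.90 CPM in A1 and at 16.3, 52.2 and 52.1 CPM in A3 of the ischemic monkeys, against 11.2, 40.9 and 24.4 CPM in A1 and 22.4, 54.6 and 28.8 CPM in A3 of the sham monkeys. GRM4, GABRD and GRIN2B were higher in A3 than in A1 in all 6 monkeys, and GRIN1 in 5 of them.

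The effect of ischemia was compared between fragments by an interaction term. No member passed an adjusted p of 0.05 in edgeR (smallest 0.303, and no gene at all, 0%), and 4 of 42 had an unadjusted p under 0.05 (GABRB1, GABRG1, GABRA3 and GRM4). These are 9.52%, near the 9.93% of all genes, so their values are given as a description. GABRB1, a beta subunit, differed between the monkeys of the pairs by -0.70, -0.01 and -0.91 on the log2 scale in A1 and by 0.26, 0.53 and 0.97 in A3. GABRG1, a gamma subunit, differed by -0.68, -0.34 and -0.27 in A1 and by 0.65, 0.30 and 0.87 in A3. Both genes were higher in ischemia in A3 in every pair and lower in A1, except that GABRB1 hardly differed in A1 of the second pair. They were near 0 over the summed fragments (-0.03 and 0.05). GABRA3 was close to 0 or below in A1 (-0.47, -0.08 and -0.10) and higher in A3 (1.05, 1.36 and 2.31).

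**Figure D4:**
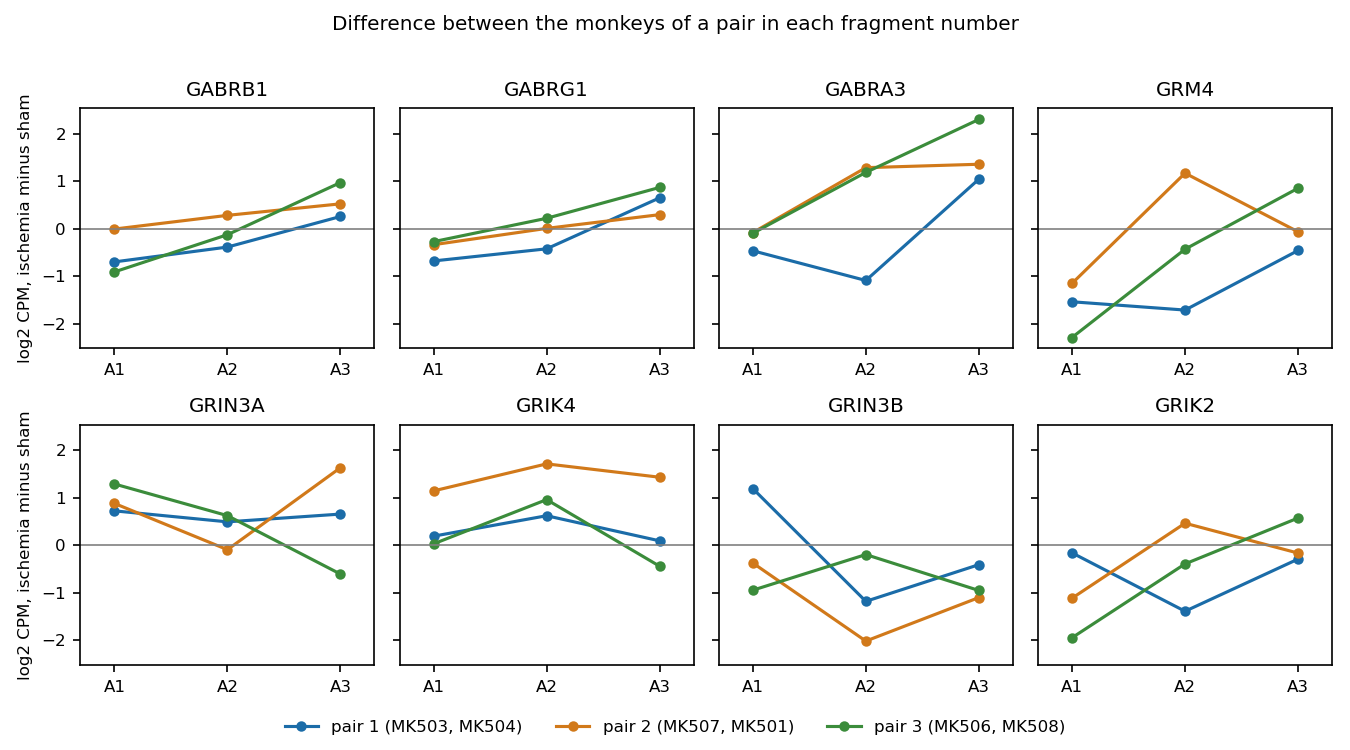
Log2 CPM of the ischemic minus the sham monkey of each pair in fragments A1, A2 and A3 for 8 members; each line is 1 pair. GABRB1, GABRG1 and GABRA3 lay above 0 in A3 in all 3 pairs and at or below 0 in A1, whereas GRIN3A lay above 0 in A1 in all 3 pairs and was mixed in A2 and A3.

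The counts of lower members changed with the fragments. Without A1, 1 member was lower at an unadjusted p under 0.05 (GRIN3B) and 1 higher (GABRA3), against 3.91% and 2.49% of all genes. Without A2, 1 was lower (GABRD) and 2 higher (GRIN3A and GABRA3), against 3.17% and 6.22%. Without A3, 10 were lower and 4 higher, against 10.7% and 12.1%, and 6 of the 8 lower members counted above were among the 10. In A1 none of GABRA4, GABRB2, GABRD, GRIA3, GRIK2 and GRM7 was higher in the ischemic monkey of any pair, and in A2 and A3 each of them was higher in 1 pair of 3. In A2 this was always the second pair and in A3 always the third. These genes were lowest in A2 within MK501 and in A1 within MK506. GABRB2, for example, was at 229, 67.2 and 226 CPM in A1, A2 and A3 of MK501. In MK506 it was at 23.9, 88.7 and 230 CPM. All the genes named for A1 were already lower in each pair over the summed fragments, and GABRA4 was not among the 8. GRIN3B, which was among the 8, ran the other way: it was higher in 1 pair in A1 and in none in A2 or A3. The same count was not made over all genes.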

How the data were processed

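The 18 SVZa libraries are single-end Illumina libraries from total RNA. Per the labels and the study's methods, bases were called with CASAVA (1.8.2), reads were checked with FastQC (0.10.0), aligned to the genome of Macaca mulatta, annotated by RhesusBase, with TopHat2 (2.0.8), and counted with bedtools (2.16.2). The authors deposited raw counts per transcript, with no normalization and 0 columns of other samples.

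Counts were summed per monkey. edgeR (4.0.16) in R (4.3.3) was run with filterByExpr, TMM and the robust quasi-likelihood F test with pair and condition, and p-values were adjusted by Benjamini-Hochberg over 17522 genes. Fragments were tested over 16814 genes with the monkey as a block. A prior count of 2 was added for log2 CPM, and the threshold was 0.05. DESeq2 (1.42.0) was the alternative tool. The biological coefficient of variation was 0.212. Spread between monkeys, not counting error, limits members above about 1 CPM. Scripts were tested on simulated data. Tables and figures were made with pandas (2.3.3), numpy (2.4.6) and matplotlib (3.10.9) in Python (3.11.15).

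The pairs are the same-numbered columns of the study's transcript table, which matched the monkeys' CPM (median absolute log2 difference of 0.0013 to 0.0048, against 0.209 or more for the next monkey, over 1804 rows). Deviations from the group means correlated within pairs across 17522 genes (r = 0.87, 0.77 and 0.65), and between monkeys of different pairs r was -0.79 to 0.62. Deviations within a group of 3 monkeys cancel out, so the gap of MK503 and MK504 alone raises r among the other monkeys. MK506 had an r of 0.65 with MK508 and 0.62 with MK501, and MK507 had 0.77 with MK501 and 0.47 with MK508. These correlations therefore cannot decide how the monkeys other than MK503 and MK504 are paired. Labels do not state that monkeys of a pair are related.

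The members and gene lists were chosen with earlier results of these data known. Values in every monkey were given for members chosen by rule: the 6 higher and the 6 lower with the smallest p, the highest of each class, the 4 with the smallest p between fragments, the 4 that varied most between pairs, and GRIK4 and GRIN3A. GRIN3B and a few others were added after their values were seen. Some members are counted but not reported by name here. No sequences or lengths were used.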

Additional observations from a re-analysis of the deposited data

Results flagged for a closer look

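Within a group of 9 libraries, a library was marked where its gap to the nearest other library took more of the group's range than Dixon's limit for 9 values. Over 44 groups (22 members in ischemia and sham), chance marks about 1 in 20, and 3 were marked. The libraries of a group come from 3 monkeys and are not independent.

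GRIN3A was marked in both groups, each time for fragment A1 of the first pair: it was at 70.0 CPM in A1 of MK503, with 22.4 CPM the next highest ischemia library, and at 42.3 CPM in A1 of MK504, with 15.9 CPM the next highest sham library. GRIA4 was marked in the same ischemia library, A1 of MK503, at 64.7 CPM, with 33.0 CPM the next highest.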

How the results depend on the processing

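Over 22 members and all alternatives, 289 values kept their direction and side of an unadjusted p of 0.05, 44 lost it, 27 gained it and 33 turned direction. RLE scaling, library totals, no low-count filter, a fit that was not robust, and all transcripts as features turned no direction.

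Members lower at an unadjusted p under 0.05 (8) were 5 with library totals, which called 10.5% of all genes higher and 5.84% lower. They were 0 with no replicate block (0.628% of all genes), 3 with 9 against 9 libraries (14.3%), and 1 without A1 (3.91%) or A2 (3.17%). They were 2 without the POLE2-rich libraries (7.36%, added after seeing the data), and 3 to 5 when a monkey was left out (3.23% to 10.1%). Members higher (1) were 4 with DESeq2 (9.27% of all genes), 0 with no replicate block (0.633%), and 4 with 9 against 9 libraries (10.7%). They were 2 without A2 (6.22%), 4 without A3 (12.1%), 2 without the POLE2-rich libraries (9.17%) and 1 to 9 when a monkey was left out (3.95% to 12.1%). At an adjusted p, DESeq2 called 1 member higher and 1 between fragments, GRIN3A in both. The 5 auxiliary genes were 8 with DESeq2 (9.27% of all genes higher and 8.52% lower) and 0 with no replicate block (0.633% and 0.628%). They were 1 without A1 (2.49% and 3.91%) and 10 without A3 (12.1% and 10.7%). When a monkey was left out they were 1 to 13, with 3.95% to 12.1% of all genes higher and 3.23% to 10.1% lower. Leaving out a monkey also removes its partner's information.

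With no replicate block, log2 fold changes turned in GRID1 (-0.005), GRIN1 (0.16) and GRIN2B (-0.88). Without A1 they turned in GRIN1 (0.19), GRIN2B (-0.014), GRM3 (-0.13) and GRM5 (0.004), without A2 in GRIN2B (-0.088), and without A3 in GRID1 (-0.088) and GRIK1-AS1 (-0.17). Without the POLE2-rich libraries they turned in GABRR1 (-0.087), GRIN1 (0.14) and GRM5 (0.009). Leaving out a monkey gave GABRR1 -0.17 to 0.44, GRID1 -0.13 to 0.32, GRIN1 -0.34 to 0.39, GRIN2B -0.30 to 0.54, GRIK1-AS1 -0.15 to 1.05, GRM3 -0.025 to 0.23 and GRM5 -0.40 to 0.10. The cause was not tested.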
